A study of Mus musculus with 8 samples.

Results

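The type I hair shaft keratins are the acidic intermediate filament proteins of the hair fibre, and 9 of their genes were examined: Krt31, Krt32, Krt33a, Krt33b, Krt34, Krt35, Krt36, Krt39 and Krt40. They were chosen by name, as the acidic hair keratin cluster, though with earlier results of these data known. Each of the 9 was represented by 1 probe set with a single gene symbol, of 22206 probe sets tested in all. RNA of the back skin of male mice of the inbred strain C3H was measured on 8 Clariom S Mouse arrays in 4 groups of 2. All mice were 7 weeks old at the start, were kept for 7 days, had their back hair trimmed and removed with a depilatory cream, and were then treated on the skin daily for 20 days. The groups received Milli-Q water (control), minoxidil, tieghemelin or maslinic acid, each compound at 1%, although the source name of minoxidil array 2 says 2%. The labels call both control arrays the tieghemelin and maslinic acid control, and here they serve for minoxidil too. Of the 8 mice assigned to each group, the labels do not say which ones gave the RNA of an array, so a p-value here reflects the spread of these arrays alone, part or all of which may be technical. The study asked whether tieghemelin and maslinic acid act on hair growth, with minoxidil, a hair growth drug, as a further treatment.

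Hair keratins are made in the cells that leave the matrix of a growing (anagen) follicle and harden into the cuticle and the cortex of the shaft. A type I keratin pairs with a basic type II keratin to form the filament, and keratin-associated proteins then cross-link the filaments through disulfide bonds. Expression is sequential: KRT35 appears low in the matrix and cuticle, KRT32 in the cuticle, KRT31, KRT33A, KRT33B and KRT34 higher in the cortex, and KRT39 and KRT40 late, in the upper cuticle and cortex. In resting follicles the shaft is no longer built and these transcripts are scarce, so their levels follow the hair cycle.

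The 9 genes lie together on chromosome 11. In the RefSeq order Krt39 and Krt40 are direct neighbours, and Krt33a, Krt33b, Krt34, Krt31, Krt32, Krt35 and Krt36 follow one another without an intervening gene. Between Krt40 and Krt33a stand 38 protein-coding genes, 23 of them named as keratin-associated protein genes. The promoters of 4 genes are shown. Krt39 and Krt40 were the members that read above control on every treated array, and Krt31 and Krt34 lie inside the block from Krt33a to Krt36. The promoter of Krt36, at the end of that block, is not shown. Each promoter shown is the 250 bases before the RefSeq start site in GRCm38.p6, read 5′ to 3′ on the gene's strand. It is the reference sequence, not that of C3H. Capitals mark every match, on either strand, to TATAAA (the core of a TATA box), TATATAA (a variant of it), CTTTGA (the core recognised by LEF1/TCF factors) and TTTTATG.
Krt31 (chr11:100050552-100050801, minus strand): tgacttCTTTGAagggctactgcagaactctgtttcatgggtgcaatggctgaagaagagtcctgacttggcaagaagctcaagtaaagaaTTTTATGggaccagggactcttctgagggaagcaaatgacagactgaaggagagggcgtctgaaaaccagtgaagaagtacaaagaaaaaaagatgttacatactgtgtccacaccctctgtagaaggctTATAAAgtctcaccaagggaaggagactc
Krt34 (chr11:100041555-100041804, minus strand): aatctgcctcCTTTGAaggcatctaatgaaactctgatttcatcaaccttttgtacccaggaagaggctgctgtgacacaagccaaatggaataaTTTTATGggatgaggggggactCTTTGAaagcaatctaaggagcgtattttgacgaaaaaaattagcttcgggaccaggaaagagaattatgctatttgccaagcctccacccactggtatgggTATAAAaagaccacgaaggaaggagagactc
Krt39 (chr11:99521339-99521588, minus strand): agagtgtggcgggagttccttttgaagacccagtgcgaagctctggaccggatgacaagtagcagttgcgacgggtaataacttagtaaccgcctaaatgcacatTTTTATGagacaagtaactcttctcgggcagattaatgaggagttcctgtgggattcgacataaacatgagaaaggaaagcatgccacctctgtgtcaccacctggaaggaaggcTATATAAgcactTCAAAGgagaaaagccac
Krt40 (chr11:99543221-99543470, minus strand): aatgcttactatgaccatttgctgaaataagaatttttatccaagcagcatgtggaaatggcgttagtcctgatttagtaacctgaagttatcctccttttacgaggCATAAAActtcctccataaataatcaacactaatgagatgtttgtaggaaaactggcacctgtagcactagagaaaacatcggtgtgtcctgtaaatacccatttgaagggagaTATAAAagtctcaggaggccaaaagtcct

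RefSeq promoters were matched for 7 of the 9 members, all but Krt33a and Krt35. TATAAA was found in 5 of the 7 and in 12.4% of 32851 promoters of the same length. It began 29 bases before the start in Krt31, Krt32 and Krt40, 31 before in Krt34 and 47 before in Krt33b. Krt32 held a further match 88 bases before the start. Krt39 and Krt36 held TATATAA instead, 30 and 48 bases before the start, which 3.0% of all promoters hold. CTTTGA was also found in 5 of the 7, against 13.8% of all promoters. In Krt31, Krt32, Krt33b and Krt34 it lay on the sense strand 240 to 247 bases before the start, with a further match 133 bases before it in Krt34, whereas the match in Krt39 lay on the other strand 18 bases before it, and Krt36 and Krt40 held none. TTTTATG, picked like TATATAA after the sequences were seen, was found in 6 of the 7, all but Krt36, and in 3.8% of all promoters. In the 6 it stood 143 to 160 bases before the start, on the sense strand except in Krt40. These are matches of letters and were not tested as binding sites.

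Control array 1 differed from the rest in ways that touch every comparison with control. Across the probe sets tested, it correlated with the other arrays at a Pearson r of 0.518 to 0.538, and they with each other at 0.901 to 0.966. Comparisons of the members and gene lists with control are therefore given with all 8 arrays and without that array, which leaves 1 control array that is assumed to vary like the other groups. Of 8 measured epidermal markers, which include the keratinocyte genes Krt5, Krt14, Krt1 and Krt10, 7 were above the antigenomic median on each of the other 7 arrays and 5 on control array 1. Of all probe sets tested, 62.4% to 80.3% were above it on those 7 arrays and 56.9% on control array 1, so this is a weak check of the tissue label.

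Levels were first set against the 23 antigenomic probe sets, whose probes have no target in the mouse and which are grouped by their number of G and C bases, from class 3 to class 25. Their median was 7.75 and 7.61 on the control arrays, 7.51 and 7.33 for minoxidil, 7.02 and 6.97 for tieghemelin, and 6.96 and 7.08 for maslinic acid. On 7 arrays that median was the value of the class 7 probe set itself, and on control array 1 it was that of class 19. Background depended strongly on the GC class. In classes 10 to 16 the median was 4.10 to 4.40 on 7 arrays and 6.64 on control array 1, whereas single classes at the extremes reached 8.33 to 9.09. The GC content of the keratin probes was not used here, so it is not known which classes fit them.

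**Figure D1:**
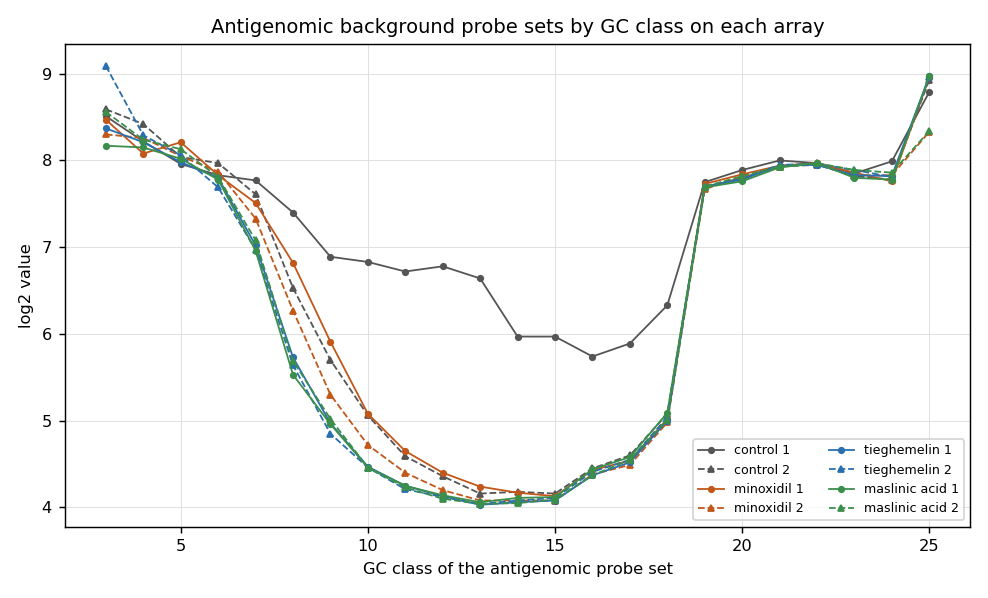
The log2 value (vertical axis) of each of the 23 antigenomic background probe sets by GC class (horizontal axis), 1 line per array, solid for array 1 and dashed for array 2 of a group. The lines of 7 arrays dip to about their class 10 to 16 medians of 4.10 to 4.40, and control array 1 stays higher there, with a median of 6.64.

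Against the antigenomic median, which is no detection call, the hair keratins ranged from members above it throughout to dim members mostly below it. Krt31, Krt33b and Krt40 were above it on 8 of 8 arrays, and Krt36 and Krt39 on 7 of 8. Krt35 was above it on 4 arrays, Krt32 and Krt34 on 1 each, and Krt33a on none. By array, 4 of the 9 members were above it on control array 1, 6 on control array 2, 4 and 5 with minoxidil, 6 and 6 under tieghemelin, and 7 and 6 under maslinic acid. Among all probe sets tested, the share above it was 56.9% and 62.4% on the control arrays, 66.2% and 71.4% for minoxidil, 79.2% and 80.3% for tieghemelin and 80.3% and 77.7% for maslinic acid. The array-wide share was thus lower in the control and minoxidil groups than in the other 2, and its part in the count of members was not tested. Against background of middling GC content the picture was different: all 9 members exceeded each antigenomic probe set of classes 10 to 16 on 7 arrays, and 6 of 9 did on control array 1. By the antigenomic 95th percentile, Krt39 and Krt40 were above background on 6 of 8 arrays, Krt31 on 5, Krt36 on 4 and Krt33b on 2. Krt35 was above that percentile on 1 array, and Krt32, Krt33a and Krt34 on none. Whether a member counts as detected therefore depended on the background chosen.

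**Figure D2:**
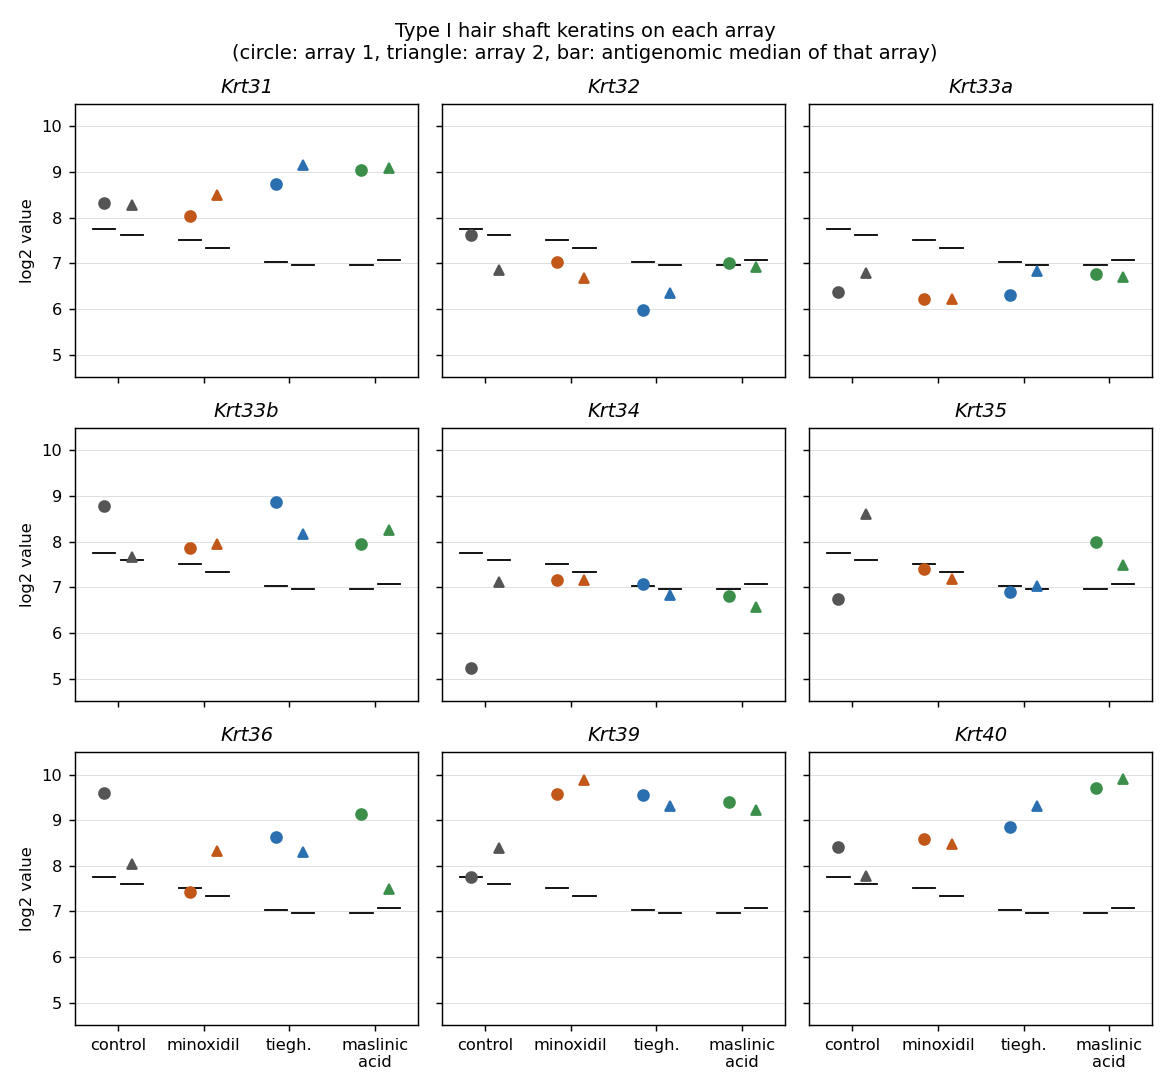
The log2 value (vertical axis) of each type I hair shaft keratin in the 4 groups (horizontal axis), with a circle for array 1, a triangle for array 2 and a black bar for the antigenomic median of that array. Krt39 and Krt40 read higher on all 6 treated arrays than on both control arrays, while the other 7 genes overlap with control in at least 1 treatment.

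Krt39, a late keratin of the upper shaft, read higher than control in all 3 treatments, though not past an adjusted p of 0.05. Its log2 values were 7.75 and 8.38 in control skin, 9.58 and 9.88 with minoxidil, 9.55 and 9.31 under tieghemelin, and 9.39 and 9.22 under maslinic acid. All 6 treated arrays lay above both control arrays, and the 3 treated groups lay within 0.42 of one another on average, in the order maslinic acid, tieghemelin, minoxidil. The difference from control was 1.66 (SE 0.38, 3.17-fold) with minoxidil, 1.37 (2.58-fold) with tieghemelin and 1.24 (2.36-fold) with maslinic acid. The limma p was 0.00225, 0.0068 and 0.0112, and the p adjusted over all probe sets 0.44, 0.41 and 0.448. Without control array 1, on which Krt39 was not above the antigenomic median, the differences were 1.34, 1.05 and 0.92 (adjusted p 0.191, 0.239 and 0.313). They ranged from 1.34 to 1.98, 1.05 to 1.69 and 0.92 to 1.56 when each array was left out in turn.

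Krt40, the neighbour of Krt39 and a keratin of the late cuticle, showed graded values across the treatments. It read 8.41 and 7.77 in control skin, 8.59 and 8.47 with minoxidil, 8.85 and 9.31 under tieghemelin, and 9.71 and 9.91 under maslinic acid. The arrays of any group did not overlap with those of any other, although minoxidil lay only just above control array 1. Against that array alone the difference of minoxidil was 0.12. Single pairs of groups did not overlap for 30.6% to 43.8% of all probe sets, and the share for all 4 groups at once was not computed. Krt40 differed from control by 1.72 (SE 0.39, 3.29-fold) with maslinic acid, by 0.99 (1.98-fold) with tieghemelin and by 0.44 (1.36-fold) with minoxidil. The limma p was 0.00212, 0.0339 and 0.284, with an adjusted p of 0.448, 0.419 and 0.608. Leaving control array 1 out gave 2.04, 1.31 and 0.77 (adjusted p 0.105, 0.164 and 0.409).

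These 2 genes were the only members with all 6 treated arrays above both control arrays, and 9.15% of all probe sets tested had that pattern. None of the 9 had all treated arrays below both, which 6.93% of probe sets did. The 3 comparisons share the control arrays, so their directions are not independent of each other. Probe sets of 10 skeletal muscle genes, among them Myh4, Myh8 and Tnnt3, read the opposite way: all 10 were lower in each treatment than in control, 7, 9 and 8 of them at the study's thresholds (a fold of 1.7 and an unadjusted p of 0.05) and none past an adjusted p of 0.05 by limma. With control array 1 left out, all 10 were again lower, 9 at the thresholds in each treatment, and 6 were past that adjusted p with tieghemelin. The log2 of their summed linear values was 19.00 and 19.42 in control skin, 16.16 and 15.15 with minoxidil, 13.18 and 12.39 under tieghemelin, and 16.87 and 13.34 under maslinic acid, and their part in the keratin values was not tested. In such bulk samples fewer cells of a type and less RNA per cell cannot be told apart.

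Among the cortex keratins, Krt31 read higher on the triterpene arrays than in the other 2 groups, with each limma p above 0.05 over all arrays. It read 8.32 and 8.27 in control skin, 8.03 and 8.49 with minoxidil, 8.74 and 9.15 under tieghemelin, and 9.05 and 9.10 under maslinic acid. Minoxidil spanned both control values, and all 4 arrays of the other treatments lay above them. Of all probe sets, 40.7% did not overlap between tieghemelin and control, and 38.7% between maslinic acid and control. The control arrays of Krt31 agreed to within 0.05, which was the smallest gap of any member there. The difference from control was 0.78 (SE 0.36, 1.71-fold) with maslinic acid, 0.65 (1.57-fold) with tieghemelin and -0.04 with minoxidil (limma p 0.0634, 0.109 and 0.92, adjusted p 0.467, 0.463 and 0.972). Leaving out control array 1 gave nearly the same values, 0.80, 0.68 and -0.01 (adjusted p 0.406, 0.472 and 0.994).

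Krt33b, a cortex keratin, read 8.79 and 7.67 in control skin, 7.87 and 7.94 with minoxidil, 8.88 and 8.16 under tieghemelin, and 7.96 and 8.25 under maslinic acid. The control arrays spanned nearly the whole range of the gene. Its differences of -0.32, 0.29 and -0.12 from control turned to 0.24, 0.85 and 0.44 without control array 1, and none was past an adjusted p of 0.05. Krt33a, its immediate neighbour, read 6.37 and 6.79, 6.22 and 6.22, 6.31 and 6.83, and 6.76 and 6.71 in the same order of groups. It was below the antigenomic median throughout and has no fold in any comparison. Its differences from control were -0.36, -0.01 and 0.16, and -0.57, -0.22 and -0.05 without control array 1. Its whole range of 0.61 was the narrowest of the family.

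Krt34, also of the cortex, read 5.24 and 7.11 in control skin, 7.16 and 7.15 with minoxidil, 7.07 and 6.83 under tieghemelin, and 6.82 and 6.57 under maslinic acid. One value stood away from the other 7, that of control array 1, and only tieghemelin array 1 was above background. With all arrays Krt34 differed from control by 0.98, 0.78 and 0.52 (adjusted p 0.479, 0.55 and 0.686), and without control array 1 by 0.05, -0.15 and -0.41 (adjusted p 0.973, 0.897 and 0.678). Krt31, Krt33a, Krt33b and Krt34 encode closely similar proteins, and cross-hybridisation between their probe sets was not tested.

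Krt35, the earliest keratin of the matrix and lower shaft, gave the largest gap between the control arrays together with Krt34. It read 6.75 and 8.61 in control skin, 7.41 and 7.19 with minoxidil, 6.90 and 7.04 under tieghemelin, and 7.99 and 7.49 under maslinic acid. Each treated array lay between the control values, so with all arrays the differences were -0.38, -0.71 and 0.05 (adjusted p 0.776, 0.583 and 0.975). Against control array 2 alone they were -1.31 with minoxidil, -1.64 with tieghemelin (3.13-fold lower) and -0.88 with maslinic acid (1.84-fold lower), with an adjusted p of 0.205, 0.106 and 0.356. Both minoxidil arrays were below the antigenomic median, and Krt35 was there at least 2.29-fold lower. Against control array 1 alone the sign was the opposite for all 3 treatments, since that array was lower than every other.

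Krt32, a cuticle keratin, read 7.63 and 6.85 in control skin, 7.02 and 6.68 with minoxidil, 5.98 and 6.34 under tieghemelin, and 7.0 and 6.92 under maslinic acid. The tieghemelin arrays were the lowest of the 8 and did not overlap with any other group. The difference from control was -1.08 (SE 0.40) with tieghemelin (limma p 0.0269, adjusted p 0.416), -0.39 with minoxidil and -0.28 with maslinic acid. Against control array 2 alone it was -0.69 with tieghemelin (adjusted p 0.444), -0.01 with minoxidil and 0.10 with maslinic acid. Only maslinic acid array 1 was above the antigenomic median, so no fold is given.

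Krt36, known from nail and tongue as well as hair, read 9.59 and 8.04 in control skin, 7.42 and 8.33 with minoxidil, 8.64 and 8.30 under tieghemelin, and 9.14 and 7.50 under maslinic acid. Its arrays differed within a group by up to 1.64, with maslinic acid, and its range of 2.17 was the widest of the family. No group separated from another, and its differences from control of -0.94, -0.34 and -0.49 had an adjusted p of 0.549, 0.835 and 0.754. Against control array 2 alone they were -0.16, 0.44 and 0.28 (adjusted p 0.941, 0.813 and 0.895), so the sign turned with tieghemelin and maslinic acid.

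**Figure D3:**
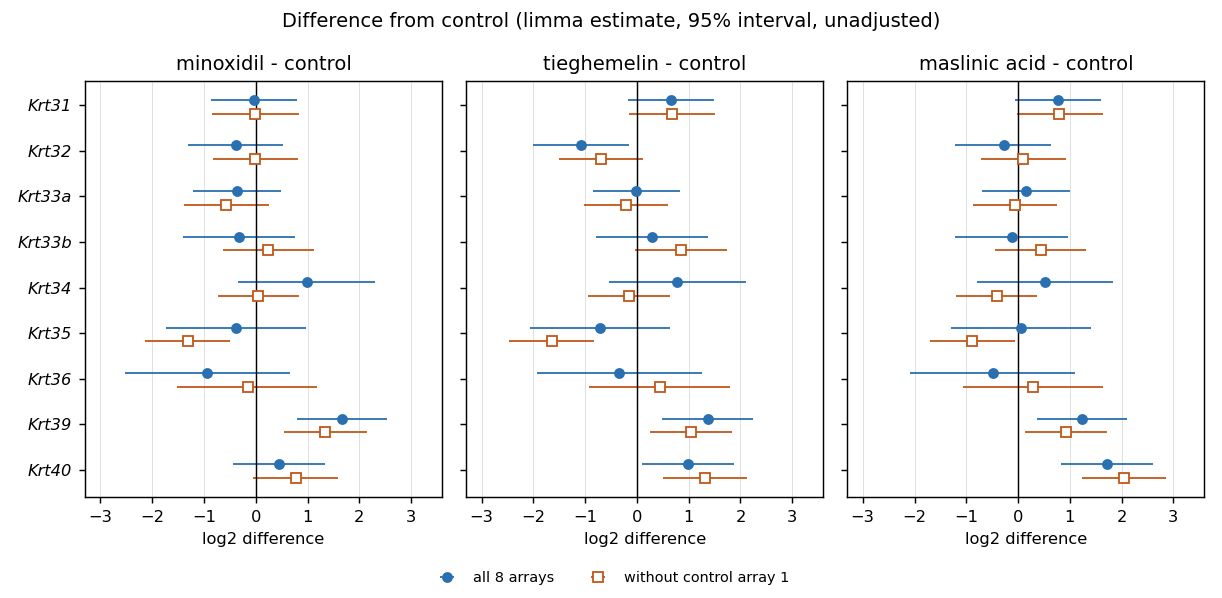
The log2 difference of each member from control (horizontal axis) for the 3 treatments, as the limma estimate with its unadjusted 95% interval, with all 8 arrays (filled circles) and without control array 1 (open squares). The estimates of Krt39 and Krt40 lie to the right of 0 in each panel, though the interval of Krt40 with minoxidil includes 0 in both fits. Krt35 goes from -0.71 to -1.64 with tieghemelin once control array 1 is left out.

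Counted as a family, the type I hair keratins showed no shared direction against control: 3 of 9 were higher with minoxidil, 5 with tieghemelin and 6 with maslinic acid. The study's own thresholds are a fold of 1.7 or more with a p, not adjusted, of 0.05 or less. By them 1 of 9 members qualified with minoxidil (Krt39 higher), where 11.3% of all probe sets did. With tieghemelin 3 of 9 qualified (Krt39 and Krt40 higher, and Krt32 lower by its log2 difference though below background in both groups), where 11.7% did, and with maslinic acid 2 of 9 (Krt39 and Krt40 higher), where 10.8% did. Without control array 1 the counts were 2, 3 and 3, where 12.9%, 13.7% and 12.8% of probe sets qualified, and Krt35, lower, had joined in each while Krt32 no longer qualified with tieghemelin. Treated and control arrays were fully separated for 4, 4 and 3 members, where 36.2%, 40.7% and 38.7% of all probe sets were. The median difference of the 9 was -0.32, 0.29 and 0.16, where that of all probe sets was 0.06, 0.05 and 0.05. The median of the 9 was -0.01, 0.44 and 0.28 without control array 1, with 4, 5 and 6 members higher. Scaling the arrays to a common antigenomic median raised that of all probe sets to 0.32, 0.73 and 0.71, and 6 member differences then turned from lower to higher (Krt31 with minoxidil, Krt33a and Krt36 with tieghemelin, and Krt32, Krt33b and Krt36 with maslinic acid). No member had an adjusted p under 0.05 with all arrays, nor did any probe set (0%). At an unadjusted p of at most 0.05, 1, 3 and 2 members stood beside 2502, 2609 and 2409 probe sets in all. With control array 1 left out no member was called either, with 0.0045%, 0.356% and 0.0045% of probe sets called. Without control array 2 it was 3 members per treatment: Krt34, Krt36 and Krt39 with minoxidil, Krt32, Krt34 and Krt39 with tieghemelin, and Krt34, Krt39 and Krt40 with maslinic acid. In that fit 37.7%, 37.9% and 37.3% of all probe sets were called, a share near that of 3 in 9.

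The treatments were also compared with one another at the same time and, but for the 2% in the source name of minoxidil array 2, at the same labelled dose, which leaves control array 1 out of the difference though not out of the error. Krt40 was 2.42-fold higher with maslinic acid than with minoxidil (log2 1.27, SE 0.39, 95% interval 0.38 to 2.17, limma p 0.0108, adjusted p 1), and Krt31 was 1.76-fold higher (0.82, interval -0.02 to 1.65, adjusted p 1). With control array 1 out of the fit, the intervals were 0.61 to 1.94 and 0.13 to 1.50, and the adjusted p 0.176 and 0.289. Of the 9 members 1, Krt40, met the study's thresholds, where 3.6% of probe sets did, and 2, Krt31 and Krt40, did without control array 1, where 11.1% did. The arrays did not overlap for 7 members, where 43.6% of probe sets did not, and 7 members were higher and 2 lower, with a median of 0.43 beside -0.03 for all probe sets. That median was 0.18 without maslinic acid array 1 and 0.28 without minoxidil array 1.

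Between tieghemelin and minoxidil no member met the thresholds with or without control array 1, where 3.3% and 10.4% of probe sets did. Krt31 was 1.61-fold higher with tieghemelin (0.69, interval -0.14 to 1.52, adjusted p 1) and Krt40 was 1.46-fold higher (0.54, interval -0.35 to 1.44, adjusted p 1), while Krt32, dim in both groups, differed by -0.69. Arrays did not overlap for 8 of 9 members, 4 in each direction, where 43.8% of all probe sets did not. The median member difference was 0.35, and it was 0.15 without minoxidil array 1 and 0.09 without tieghemelin array 2.

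Tieghemelin and maslinic acid, both triterpenoid in kind, had 4 separated members, beside 8 and 7 for the other pairs of treatments. The share over all probe sets was also lower for this pair, 30.6% beside 43.8% and 43.6%. Krt31, Krt33a, Krt36 and Krt39 differed by -0.13, -0.16, 0.15 and 0.13, with 95% intervals of -0.96 to 0.71, -1.01 to 0.68, -1.44 to 1.75 and -0.74 to 1.00, and each interval reaches at least 0.68 in both directions. Krt36 ran from -0.67 to 0.97 when each array was left out in turn. Krt32, Krt35 and Krt40 read lower with tieghemelin, with differences of -0.80, -0.77 and -0.73, and did not overlap, with an adjusted p of 1 for each. None met the thresholds with all arrays, where 0.306% of probe sets did. Without control array 1, Krt32 and Krt35 met them, with an unadjusted limma p of 0.023 and 0.0295, where 1.56% of probe sets qualified. Krt40, at 1.66-fold, missed the fold threshold. Krt33b and Krt34 differed by 0.42 and 0.25. Krt34 was the fourth member without overlap, where 30.6% of probe sets did not. In none of the 3 comparisons between treatments was any probe set past an adjusted p of 0.05 by limma, with or without control array 1. With all arrays, 732, 800 and 68 probe sets had an unadjusted p of at most 0.05 for tieghemelin against minoxidil, maslinic acid against minoxidil and tieghemelin against maslinic acid.

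**Figure D4:**
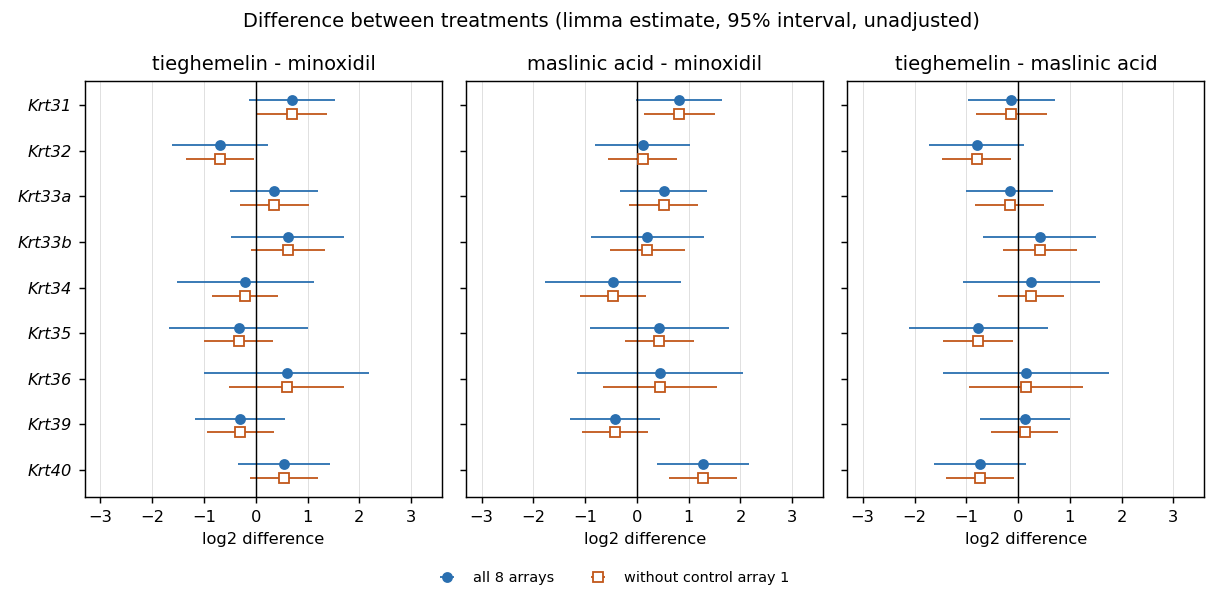
The log2 difference of each member between 2 treatments (horizontal axis), as the limma estimate with its unadjusted 95% interval, with all 8 arrays (filled circles) and without control array 1 (open squares), which changes the interval only. Krt40 is highest with maslinic acid, by 1.27 over minoxidil, and its difference of tieghemelin from maslinic acid is -0.73.

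The partners and regulators of the type I keratins were taken from lists of other shaft genes. Of the type II hair keratins, Krt82, Krt84 and Krt86 were matched and Krt81, Krt83, Krt85 and Krt87 were not used here. All 3 were lower than control with minoxidil and with tieghemelin, and 2 of 3 with maslinic acid, with medians of -0.40, -0.12 and -0.29 and none at the study's thresholds. Against control array 2 alone the medians were -0.33, -0.46 and -0.29, all 3 were lower in each treatment, and Krt86 met the thresholds with minoxidil. Krt86, a cortex keratin and potential partner of Krt31, read 9.29 and 10.19 in control skin, 9.27 and 9.28 with minoxidil, 9.30 and 10.02 under tieghemelin, and 10.09 and 9.70 under maslinic acid. Its minoxidil arrays lay just below those of the other groups, with a difference of -0.47 from control (adjusted p 0.639), and of -0.91 without control array 1 (adjusted p 0.376).

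Of 9 measured shaft transcription factors, 1 met the thresholds with minoxidil, none with tieghemelin and 1 with maslinic acid, each lower, with list medians of -0.39, -0.51 and -0.46. Leaving out control array 1 gave medians of -0.15, -0.19 and -0.17, and the only factor at the thresholds was Lef1, lower with tieghemelin and with maslinic acid. With all arrays these were Foxn1, the factor lost in nude mice, at -0.94 with minoxidil, and Foxq1, which acts in the medulla of the shaft, at -0.88 with maslinic acid, and both were below the antigenomic median in both groups. Hoxc13, an activator of hair keratin genes, was below that median on all 8 arrays, at 5.94 and 6.08 in control skin, 6.47 and 5.89 with minoxidil, 6.78 and 6.05 under tieghemelin, and 6.28 and 6.20 under maslinic acid. Lef1, the Wnt effector of the hair matrix, read 7.12 and 7.74 in control skin, 7.52 and 7.37 with minoxidil, 6.98 and 6.87 under tieghemelin, and 6.82 and 7.06 under maslinic acid. It was below the antigenomic median on control array 1 (7.12 against 7.75) and, by less, on both arrays of each triterpene group. Lef1 differed from control by -0.51 with tieghemelin and -0.49 with maslinic acid (limma adjusted p 0.545 and 0.572). Without control array 1 the differences were -0.82 and -0.80.

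Among 11 genes of shaft junctions, calcium binding and cross-linking, 1 met the thresholds with minoxidil (lower), 2 with tieghemelin (1 higher, 1 lower) and 1 with maslinic acid (higher), and without control array 1 it was 1, 2 and 0. Dsp, which encodes desmoplakin, the anchor of keratin filaments at desmosomes, differed from control by -1.18, -1.20 and -0.85 (limma adjusted p 0.44, 0.416 and 0.485), and by -1.29, -1.31 and -0.96 without control array 1. Tgm1, a transglutaminase that is also a marker of the epidermal envelope, differed by 1.84 with tieghemelin and 1.39 with maslinic acid (adjusted p 0.41 and 0.448), above background on 1 of the 2 control arrays. Against that array, control array 2, it was 1.12 and 0.67 (adjusted p 0.209 and 0.463). Dsg4, the desmosomal cadherin of the shaft cortex, differed by 1.26 with maslinic acid (adjusted p 0.468), and by 0.53 without control array 1 (adjusted p 0.712). Of 5 proliferation markers none met the thresholds against control with all arrays, with medians of -0.36, -0.13 and -0.37. With control array 1 left out the medians were -0.24, 0.04 and -0.31. Mki67, the Ki-67 proliferation antigen, then differed by -1.27 with minoxidil and -0.86 with maslinic acid. With all arrays Mki67 differed by -0.78 and -0.37 (limma adjusted p 0.464 and 0.698), and it overlapped with control under maslinic acid. Top2a alone of the 5 was higher with maslinic acid when all arrays were used, at 1.2 without overlap (limma adjusted p 0.468).

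Similarity of pattern was measured as the root mean square difference between log2 profiles, each centred on its own mean. Within the family, Krt31 and Krt33a were the closest over all 8 arrays (0.314), though Krt33a was the flattest member and above background on no array, followed by Krt31 and Krt40 (0.398) and Krt34 and Krt39 (0.429). Krt34 and Krt36 were the furthest apart (1.17). Without control array 1, Krt31 and Krt33a were again the closest (0.329), and Krt35 and Krt40 the furthest (1.02), so Krt39 and Krt40 shared a direction against control but were not the nearest pair. The genes nearest to the mean of the 9 members over 8 arrays were Adamdec1 (0.054), Ccnb2 (0.067), Itgax (0.075), Adgrb1 (0.08) and Tssc4 (0.081). Adamdec1 and Ccnb2 were also among the nearest 5 over 7 arrays. The single nearest genes over 8 arrays were Lzic for Krt31 (0.082), Apobec1 for Krt39 (0.126) and Atp8b2 for Krt40 (0.216). Without control array 1 they were Coch (0.075), Slc30a3 (0.09) and Iapp (0.174), and the nearest gene changed for every member. With 8 arrays and this many probe sets, some genes lie close to any profile.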

How the data were processed

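Total RNA (9.4 µg, per the labels) from mouse skin was labelled with biotin and hybridised to Clariom S Mouse arrays. The authors normalised the scans in Transcriptome Analysis Console 4.0.1, per the series' design text, and Affymetrix Expression Console and RMA are named in the submitters' processing notes. The authors' deposited table holds 1 value per probe set and array, read as log2 because the values run from 3.69 to 19.93. Genome build and the study's test are not given in the sources used here. Normalisation between arrays largely removes differences in total signal, yet the SD over probe sets was 1.32 on control array 1 and 1.62 to 1.69 on the others. After removal of 6640 control probe sets, 22206 were tested without scaling or filter, 19572 of them with 1 symbol.

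All 8 arrays entered 1 fit of limma 3.58.1 (lmFit and eBayes, 2-sided, R 4.3.3) with 4 residual degrees of freedom, and p-values were adjusted by the Benjamini-Hochberg method within each comparison. With 2 arrays against 2, an exact permutation test cannot go below 0.33. The code was tested on simulated data. Where neither array of a group exceeded its antigenomic median, a fold is a bound, with dim arrays raised to that median, or is left out. The median is no detection call. The number of arrays limits the precision. All 9 members are named. From other lists, up to 3 genes per comparison with the largest difference among those that did not overlap could be named, and Krt86, Hoxc13, Lef1 and Mki67 were also given after their values were seen. The members and lists were chosen with earlier results of these data known. Alternatives were quantile normalisation, a shift to a common median or antigenomic median, a filter on dim probe sets, a fit with trend and robust options, array weights, no moderation, the 2 groups alone, a replicate block and each array left out.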

Additional observations from a re-analysis of the deposited data

How the results depend on the processing

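For Krt39 and Krt40 all 6 treated arrays lay above both control arrays, so leaving out 1 array could not change the sign. With each array left out in turn, Krt39 differed from control by 1.34 to 1.98 with minoxidil. It differed by 1.05 to 1.69 with tieghemelin and by 0.92 to 1.56 with maslinic acid. Krt40 differed by 0.12 to 0.77, 0.66 to 1.31 and 1.40 to 2.04 in the same order. The same leave-one-out ranges for members that changed sign were, with minoxidil, Krt31 -0.27 to 0.19, Krt33b -0.89 to 0.24 and Krt35 -1.31 to 0.55. With tieghemelin they were Krt33a -0.27 to 0.25, Krt33b -0.27 to 0.85, Krt34 -0.15 to 1.71, Krt35 -1.64 to 0.21 and Krt36 -1.12 to 0.44. With maslinic acid they were Krt32 -0.67 to 0.10, Krt33a -0.05 to 0.36, Krt33b -0.69 to 0.44, Krt34 -0.41 to 1.45, Krt35 -0.88 to 0.98 and Krt36 -1.31 to 0.33. Between maslinic acid and minoxidil Krt32 ran from -0.06 to 0.28 and Krt36 from -0.37 to 1.27, and between tieghemelin and maslinic acid Krt31 ran from -0.33 to 0.08, Krt33a from -0.42 to 0.09 and Krt36 from -0.67 to 0.97. Leaving out 1 array, the median member difference ran from -0.32 to -0.01 with minoxidil, from 0.21 to 0.45 with tieghemelin and from 0.13 to 0.75 with maslinic acid against control. It ran from 0.09 to 0.35 for tieghemelin against minoxidil, from 0.18 to 0.54 for maslinic acid against minoxidil and from -0.33 to 0.01 for tieghemelin against maslinic acid. The number of members at the study's thresholds also changed with the array left out, and each such fit leaves 1 array in a group. Members with an adjusted p under 0.05 by limma ran from 0 to 3 in each control comparison, and the 3 arose only without control array 2.

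Scaling to a common antigenomic median gave a median member difference of 0.98 with tieghemelin and 0.82 with maslinic acid against control. It was 0.78 and 0.83 for the same treatments against minoxidil. Under this scaling 2 and 3 members met the thresholds against minoxidil, beside 1819 and 1696 of 22206 probe sets (732 and 800 as deposited). Under it Krt31 was 0.22 with minoxidil, Krt33a 0.68 and Krt36 0.35 with tieghemelin, Krt32 0.38, Krt33b 0.54 and Krt36 0.17 with maslinic acid, and Krt34 0.22, Krt35 0.09 and Krt39 0.13 for tieghemelin against minoxidil. Of the probe sets at the thresholds, 2797 of 3194, 6653 of 6750 and 6200 of 6289 were then higher than control, beside 1549 of 2502, 1558 of 2609 and 1420 of 2409 as deposited. A common median over all probe sets turned Krt35 with maslinic acid to -0.0044. With brighter probe sets only, the median was 0.65 and 0.78 with tieghemelin and maslinic acid. Array weights left 1 member at the thresholds with each of them, and 2 for maslinic acid against minoxidil and for tieghemelin against maslinic acid. Fits of the 2 groups alone gave 1 with tieghemelin and 2 for those same 2 comparisons, and no moderation gave 2 for maslinic acid against minoxidil. The shares of all probe sets under array weights, the 2 groups alone and no moderation are not given here. A scaling to a common median, antigenomic or over all probe sets, shifts every probe set of an array by the same amount. The cause of the other changes was not tested.

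By the antigenomic 95th percentile, 2 and 1 members were above background on the control arrays, 2 on minoxidil array 1, 3 on tieghemelin array 2, and 4 and 3 with maslinic acid. By the median of GC classes 10 to 16, chosen after seeing the data, 7 were on control array 1 and 9 on each of the other 7 arrays. Same-numbered arrays share only a number, with deviations correlated at -0.17 to 0.09. A replicate block gave 1, 2 and 2 members at the thresholds against control, where 2450, 2565 and 2316 of 22206 probe sets qualified. Between treatments it gave 0, 1 and 0 members, where 634, 644 and 51 probe sets qualified. Crossing the numbers of tieghemelin and maslinic acid gave 62 probe sets, beside 51 with the block and 68 without. The 2 arrays a group and high background limit what can be read of the dim members.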
